A study of Mus musculus with 52 samples.

Results

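After 1 day of culture, mouse intestinal organoids exposed to all-trans retinoic acid (atRA), which activates the retinoic acid receptors, were compared with organoids exposed to an antagonist of the retinoid X receptors (RXRi). The 8 libraries of this contrast, 4 with atRA and 4 with RXRi, were taken by their labels from the 52 libraries of the series. Organoids are epithelial cultures that grow from stem cells into hollow bodies with absorptive and secretory cells. Both groups came from wild-type C57BL/6 mice of 8 weeks, 2 male littermates, with 1 culture per mouse, and RNA of each culture was purified in duplicate from pooled wells. Single cells were seeded, and 10 µM atRA or 5 µM RXRi was added at the start of culture, so the doses differ. For these 24 hours both groups also had a medium with EGF, Noggin, R-spondin, Wnt3a-conditioned medium and inhibitors of ROCK (Y-27632) and of GSK3B (CHIR99021). The antagonist is not named further in the labels, and its effect on single receptors is not given there. Only 2 mice stand behind each group, so n = 2 cultures throughout.

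Retinoic acid receptors bind DNA as heterodimers with a retinoid X receptor. The same retinoid X receptors also pair with the receptors for fatty acids (PPAR), oxysterols (LXR), bile acids (FXR), vitamin D (VDR), foreign compounds (PXR and CAR) and thyroid hormone. An agonist of the retinoic acid receptors and an antagonist of the retinoid X receptors can therefore meet on retinoic acid targets. Such an antagonist can also reach the other partners. In the intestine, retinoic acid is known for the induction of Isx, a homeobox repressor of vitamin A uptake, and of enzymes that remove retinoids.

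The libraries held 16048671 to 21189972 reads, with 15162 to 15599 genes above 0. The level of a gene is given in RPKM (reads scaled to the length of the gene and the depth of the library), where 3 reads in 1 kilobase come to 0.142 to 0.187 RPKM. Across the 12423 tested genes, the log2 levels of duplicates correlated at r = 0.9953 to 0.997 (4 pairs), those of different cultures with the same drug at 0.9933 to 0.9957 (8 pairs), and those of different drugs at 0.9555 to 0.9582 (16 pairs), as descriptions across genes. Epithelial Vil1, the villin of the brush border, was at 237 to 259 RPKM with atRA and 133 to 144 with RXRi. Of 15 immune markers, 8 were listed at 0 in every atRA library and 8 in every RXRi library, and the summed markers reached 4.89 to 6.78 RPKM with atRA and 4.06 to 5.49 with RXRi. The summed fibroblast and muscle markers came to 1.05 to 1.27 and 0.983 to 1.43 RPKM, with Col3a1, Dcn and Lum at 0 in all 8 libraries, and the summed endothelial and neural markers to 2.70 to 3.89 and 2.46 to 3.45 RPKM. Among the 5 tested markers of these 3 lists, only Lyve1 passed the test (higher with atRA by 0.69 ± 0.19 on the log2 scale, limma adjusted p = 0.0157). Its call was lost in 3 of the 4 fits that left out a culture (adjusted p = 0.0531 to 0.111), and its part in the other results was not tested.

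With atRA, 1464 of 12423 genes were higher than with RXRi (11.8%) and 1607 were lower (12.9%) after 1 day, by limma with a Benjamini-Hochberg adjusted p under 0.05. At least 2-fold differences on the log2(RPKM + 1) scale were found for 420 genes higher (3.38%) and 304 lower (2.45%). The median difference of all tested genes was 0.008. For 3036 genes (24.4%) all 4 atRA libraries lay above all 4 RXRi libraries, and for 2965 (23.9%) all 4 lay below. All differences below are atRA minus RXRi on the log2(RPKM + 1) scale with the standard error of the fit, a scale that understates differences of genes near 0. The counts fell to 645 higher and 601 lower when the day 1 DMSO libraries, 1 of which holds 12443 reads, shared the estimate of the spread (the DMSO-shared spread below), and leaving out 1 culture gave 957 to 1044 higher and 932 to 1198 lower.

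**Figure D1:**
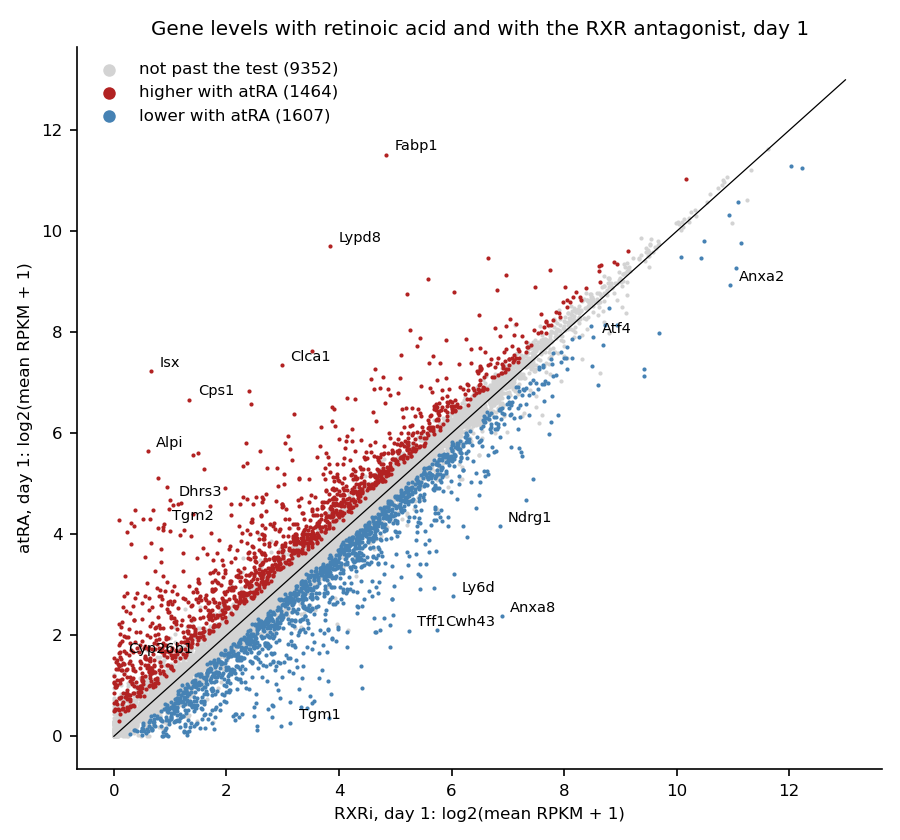
Level of each tested gene on day 1, as log2(mean RPKM + 1), with RXRi on the x axis and with atRA on the y axis; each point is a gene, and the line marks equal levels. Red points are the 1464 genes higher with atRA, blue points the 1607 lower, grey points those that did not pass the test. Fabp1, Lypd8, Isx and Cps1 lie farthest above the line, and Anxa8 and Cwh43 far below it.

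The 12 genes with the largest differences in favour of atRA were headed by Fabp1. This gene, for the fatty acid-binding protein of the liver and small intestine (chromosome 6, 71199879 to 71205034, GRCm38.p6), was at 2386, 2465, 3366 and 3529 RPKM in the atRA libraries, given here and below with the duplicates of culture 1 first and those of culture 2 after them. In the RXRi libraries Fabp1 was at 25.9, 29.4, 23.8 and 31.4 RPKM. The culture means were 2936 ± 723 (SD, n = 2) with atRA and 27.6 ± 0.0486 with RXRi, and all 4 atRA libraries stood far above the rest, a difference of 6.67 ± 0.35 (limma adjusted p = 1.43e-09). Day 1 DMSO cultures, the vehicle group, held 69.8 and 111 RPKM, nearer to RXRi than to atRA. These DMSO levels, here and below, are culture means given as background without a test, and culture 1 rests on 1 library.

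Lypd8, an anchored protein of the colon epithelium that keeps flagellated bacteria from the mucosa, was at 840.0, 862, 821 and 806 RPKM with atRA and 11.7, 13.7, 14.4 and 13.8 with RXRi. The libraries of the drugs did not overlap (difference 5.86 ± 0.29, adjusted p = 6.17e-10), and DMSO lay between them at 223 and 240.4. Cps1, the mitochondrial enzyme that starts the urea cycle, was at 100.5, 101, 99.6 and 102 against 1.38, 1.55, 1.25 and 1.95 RPKM, a difference of 5.33 ± 0.13 (adjusted p = 2e-13). Here DMSO, at 64.5 and 72.9, stood close to atRA. Alpi, the intestinal alkaline phosphatase of the brush border, was at 41.3, 42.1, 56.9 and 55.3 with atRA and 0.424, 0.674, 0.461 and 0.507 RPKM with RXRi (5.03 ± 0.17, adjusted p = 7.07e-12). Its DMSO cultures held 13.4 and 16.1 RPKM, between the drugs.

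The rest of the 12 span several cell types. Clca1, a secreted protein of goblet cell mucus, was at 140.1, 156, 180.4 and 174 RPKM against 6.93, 6.34, 7.97 and 6.31 (4.37 ± 0.41, adjusted p = 9.79e-07), with DMSO at 8.32 and 8.98. Dmbt1, a secreted mucosal defence protein, was at 49.8, 48.6, 44.9 and 48 against 1.94, 2.21, 1.19 and 2 RPKM (4.12 ± 0.26), with DMSO at 2.09 and 1.51. For both genes the vehicle level thus sat beside RXRi, and only the atRA libraries stood apart from it. Gkn3, listed among stem cell and stomach genes, was at 23.6, 20.8, 16.3 and 12.7 RPKM with atRA and at 0.119, 0, 0.0647 and 0.0786 with RXRi, where every library was under the level of 3 reads in 1 kilobase (4.15 ± 0.34, adjusted p = 1.94e-07). The cytochromes Cyp2c65 and Cyp2c55, with differences of 4.16 ± 0.20 and 4.15 ± 0.20, the tetraspan protein Tm4sf20 (4.45 ± 0.13) and Entpd8, a nucleotide hydrolase (4.32 ± 0.16), complete the group with Isx. The 2 cytochromes belong to a family of near-identical copies, among which the authors' counting could split reads.

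Genes lower with atRA, and so higher with RXRi, were headed by Anxa8. This calcium- and lipid-binding annexin (chromosome 14, 34085979 to 34100571) was at 3.18, 4.82, 4.46 and 4.31 RPKM with atRA and 123, 119.9, 112 and 119 with RXRi (-4.53 ± 0.26, adjusted p = 3.98e-09). DMSO lay between the drugs at 19 and 19.4. Cnfn (cornifelin), Sbsn (suprabasin) and Tgm1, the transglutaminase that crosslinks the cornified envelope, differed by -3.49 ± 0.29, -3.45 ± 0.24 and -2.88 ± 0.20. Tgm1 was at 0.338, 0.309, 0.0941 and 0.0714 RPKM with atRA, 7.43, 7.98, 7.63 and 8.13 with RXRi and 6.05 and 5.53 in DMSO, with vehicle close to RXRi. Sbsn was at 1.1, 1.05, 0.817 and 0.821 RPKM with atRA, 19.3, 18.6, 19.8 and 23.4 with RXRi and 1.65 and 1.24 in DMSO, with vehicle close to atRA instead. Tff1, the trefoil peptide of the stomach surface, was at 3.5, 3.2, 3.31 and 3.03 against 41.6, 32.9, 35.7 and 37.5 RPKM (-3.15 ± 0.23, adjusted p = 5.65e-08), with DMSO at 4.59 and 3.68. The others were Cwh43 (-3.66 ± 0.35), Ly6d (-3.26 ± 0.60), the membrane-remodelling Ehd2 (-3.15 ± 0.17), the myosin light chain Myl7 (-3.03 ± 0.46), the raft protein Mal (-3.0 ± 0.18), Trim29 (-2.88 ± 0.18) and the nucleotidase Nt5c1a (-2.86 ± 0.19). All 24 genes had libraries that did not overlap, which the rule for naming them asked for.

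**Figure D2:**
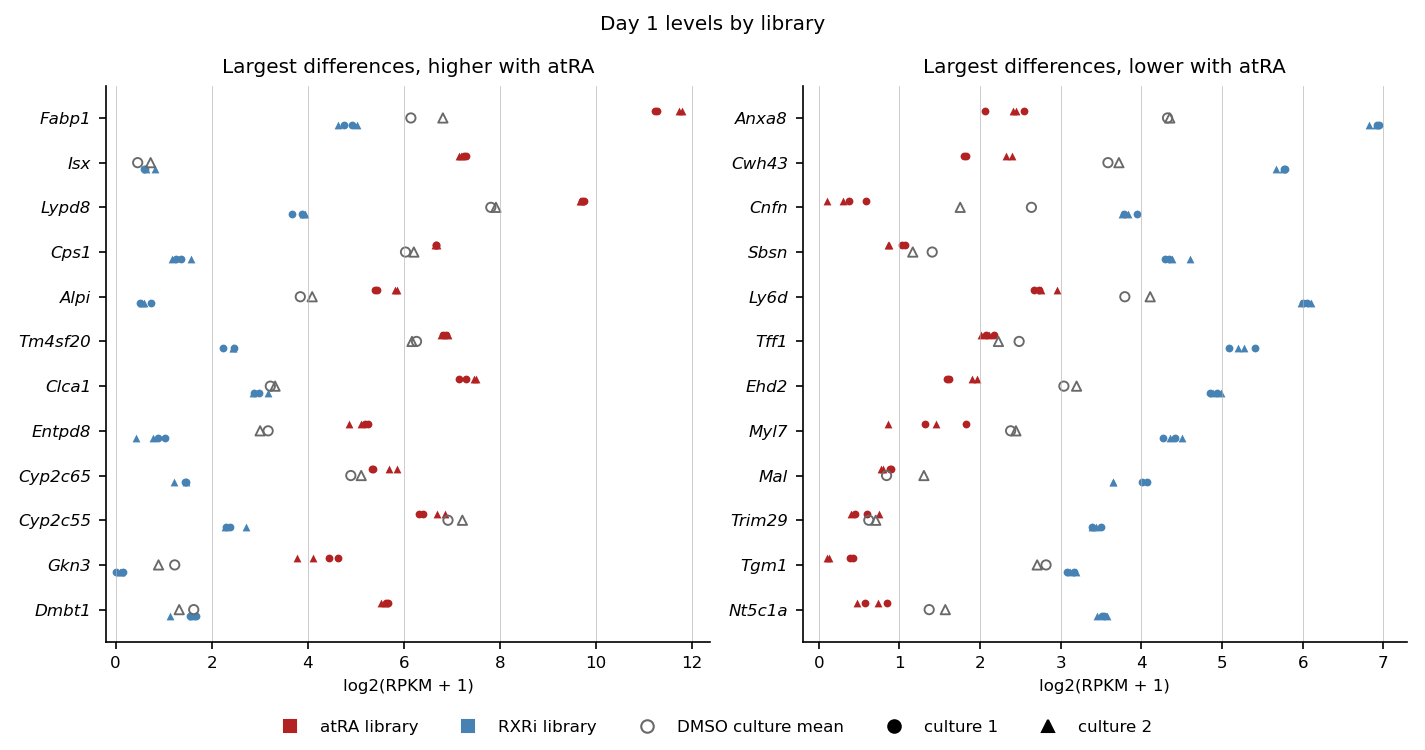
Day 1 level of the 12 genes with the largest difference in each direction, in log2(RPKM + 1); filled points are single libraries (red atRA, blue RXRi), open points are DMSO culture means, circles are culture 1 and triangles culture 2. The DMSO points of Isx, Clca1 and Dmbt1 lie on or near the RXRi points, those of Cps1, Tm4sf20 and Cyp2c55 near the atRA points, and those of Tgm1 near RXRi.

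The retinoic acid-responsive list holds known targets of the retinoic acid receptors. Of 20 listed genes, 10 were high enough to test, and 5 were higher and 2 lower with atRA, against 11.8% and 12.9% of all genes, with a median difference of 0.80. Isx (chromosome 8, 74873174 to 74893506) was at 157, 151, 146 and 141 RPKM with atRA and 0.5, 0.521, 0.544 and 0.765 with RXRi (6.56 ± 0.13, adjusted p = 2.45e-14). DMSO was at 0.377 and 0.659, so vehicle and RXRi were both near 0 and only the atRA libraries held a high level. Dhrs3, a reductase that turns retinal back to retinol (chromosome 4, 144892534 to 144928209), showed the same order, with 26.5, 25.6, 24.1 and 21.6 RPKM in atRA, 0.58, 0.748, 0.946 and 1.72 in RXRi and 1.01 and 1.38 in DMSO (3.70 ± 0.19, adjusted p = 8.49e-10). Cyp26b1, a hydroxylase that degrades retinoic acid, was at 1.69, 1.77, 1.82 and 2.58 against 0.0802, 0.0772, 0.0872 and 0.0588 RPKM (1.45 ± 0.35, adjusted p = 0.00612). Its call was lost when the second atRA culture was left out (difference 1.35, adjusted p = 0.0503).

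A different order was seen for Tgm2, a tissue transglutaminase, and Cdx1, the intestinal homeobox factor. Tgm2 was at 18.3, 17.7, 17.1 and 16.3 RPKM with atRA and 0.891, 0.752, 0.707 and 1.07 with RXRi (3.31 ± 0.10, adjusted p = 1.89e-12), with DMSO at 12.2 and 12.6. Cdx1 was at 119, 112, 111 and 102 against 27.9, 31.5, 33.9 and 34.5 RPKM (1.77 ± 0.23, adjusted p = 2.59e-05), with DMSO at 130.2 and 124. In both, the 4 RXRi libraries were the low ones and vehicle was near or above atRA. Of the 2 lower members, Plaat3, a lipid-modifying enzyme, had the smaller difference, at -0.32 ± 0.09 (adjusted p = 0.0201), a call that was lost without culture 2 of either drug (adjusted p = 0.146 without that of atRA and 0.201 without that of RXRi) and with the DMSO-shared spread (0.660). The other lower member, not named here, differed by -1.13, and its call was kept with the DMSO-shared spread. Rai1 (0.04 ± 0.11), the corepressor Nrip1 (0.14 ± 0.17) and the retinol esterase Lrat (0.09 ± 0.11) did not pass the test.

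The 10 list members under the level for testing were not uniform. Stra6, the retinol transporter, was at 0.844, 1.04, 0.934 and 1.12 RPKM with atRA and 0.00938, 0.0116, 0 and 0.0124 with RXRi, and no library of one drug overlapped with the other. Rarb, a receptor that is a retinoic acid target in many tissues, stayed low at 0.0852, 0.0667, 0.0345 and 0.0873 RPKM with atRA and 0.0192, 0, 0.0104 and 0 with RXRi. Cyp26a1, the main inducible retinoic acid hydroxylase of other tissues, was listed at 0 in 3 of 4 libraries of each drug and at most 0.0350 RPKM in the others. The 4 Rarb values with atRA lay above the 4 with RXRi, but all were too low to test, and a difference in Cyp26a1 was not detectable at this depth.

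Promoter sequence was searched for pairs of receptor half-sites in the 250 bases before each start of the named genes, with RefSeq promoters of GRCm38.p6 for 112 of 153. The half-sites searched were AGGTCA, the consensus form for these receptors, its close variant GGGTCA, the form AGTTCA that retinoid receptors also accept, and the remaining combination GGTTCA. They were allowed as direct repeats with 1, 2 or 5 bases between them (DR1, DR2 and DR5), on both strands. Bco1, the enzyme that cleaves beta-carotene to retinal, was the only gene with a match, a DR1 whose first base lies 56 bases before the start. Of all 32851 promoters, 0.164% held a DR1, 0.174% a DR2, 0.0883% a DR5 and 0.426% any of the 3. The 112 genes have 147 promoters in the table, of which 24 held at least 1 AGGTCA (16.3%), against 14% of all promoters. The sequences of Bco1 (chr8:117095615-117095864, + strand), of Fabp1 with the largest difference (chr6:71199629-71199878, + strand) and of Isx (chr8:74872924-74873173, + strand) are shown, 5′ to 3′, with each AGGTCA on either strand in capitals.
Bco1: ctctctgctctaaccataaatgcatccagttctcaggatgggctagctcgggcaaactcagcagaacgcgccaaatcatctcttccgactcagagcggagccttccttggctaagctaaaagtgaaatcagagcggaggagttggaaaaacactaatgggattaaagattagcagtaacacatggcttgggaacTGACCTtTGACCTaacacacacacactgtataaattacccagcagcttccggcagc
Fabp1: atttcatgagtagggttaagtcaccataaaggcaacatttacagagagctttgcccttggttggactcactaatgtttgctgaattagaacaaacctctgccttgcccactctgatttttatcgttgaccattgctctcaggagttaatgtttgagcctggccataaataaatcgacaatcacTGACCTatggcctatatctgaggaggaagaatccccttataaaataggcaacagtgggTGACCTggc
Isx: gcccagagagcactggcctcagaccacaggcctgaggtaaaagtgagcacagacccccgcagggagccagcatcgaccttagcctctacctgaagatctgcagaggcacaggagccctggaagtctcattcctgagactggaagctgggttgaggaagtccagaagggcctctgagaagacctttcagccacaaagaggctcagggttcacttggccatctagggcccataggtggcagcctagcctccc
Fabp1 held 2 AGGTCA half-sites that are not spaced as one of the repeats. The first TGACCT is followed, after 1 base, by TGGCCT, a form that was not searched, so imperfect repeats were not counted. AGGTCA occurs on neither strand of the Isx window. Bco1 itself was at 1.7, 1.88, 1.94 and 2.23 RPKM with atRA and 0.596, 0.277, 0.608 and 0.787 with RXRi (0.91 ± 0.10, adjusted p = 7.15e-06), with DMSO at 1.67 and 2.4, near atRA. A match describes the letters and is not evidence of binding.

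Genes of retinoid uptake and metabolism leaned towards atRA, with 10 of 26 tested members higher (38.5%) and 2 lower (median 0.35). Aldh1a1, a retinal dehydrogenase that makes retinoic acid, was at 21.8, 19.5, 25.8 and 26.5 RPKM with atRA and 3.23, 3.65, 3.11 and 3.04 with RXRi (2.51 ± 0.31, adjusted p = 1.81e-05), with DMSO at 10.2 and 9.15. Its relative Aldh1a7 differed by 1.94 ± 0.15 (adjusted p = 9.83e-08). The lower members included Rdh10, a retinol dehydrogenase singled out after its values were seen (-1.05 ± 0.20, adjusted p = 0.000812). The lowest difference in this list was -1.13. Thus enzymes of both the forming and the removing side were among the genes higher with atRA.

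Of the 4 tested genes for retinoic acid and retinoid X receptors, 0 were higher and 2 were lower with atRA. Rarg was lower with atRA, at 2.18, 1.69, 2.36 and 2.18 RPKM against 5.66, 6.35, 6.45 and 5.54 (-1.18 ± 0.24, adjusted p = 0.00157), with DMSO at 1.59 and 1.69, near atRA. Rxra differed by -0.32 ± 0.09 (adjusted p = 0.0115), and this call was lost in each of the 4 fits that left out a culture (adjusted p = 0.0505 to 0.0723), with median-of-ratios scaling (0.0610) and with the DMSO-shared spread (0.168). Rara (0.29 ± 0.10) and Rxrb (0.25 ± 0.12) did not pass the test, though Rara did with the culture as a block (adjusted p = 0.0486) and with median-of-ratios scaling (0.0416), and Rxrg was listed at 0 in all 8 libraries. By level, Rxrb stood highest, at 22.2 to 27.3 RPKM with atRA and 19.8 to 22.9 with RXRi, followed with RXRi by Rxra at 10.8 to 11.2.

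Of the 13 receptors that pair with a retinoid X receptor, 5 were higher and 2 lower with atRA (38.5% and 15.4%), and 3 and 0 with the DMSO-shared spread. Nr1i2, which encodes PXR, was at 25.1, 24.9, 25.6 and 24.5 RPKM with atRA, 4.11, 4.27, 4.18 and 4.02 with RXRi and 15.8 and 15 in DMSO (2.34 ± 0.11, adjusted p = 3.36e-10). Ppara was at 3.3, 3.23, 4.31 and 4.92 against 0.213, 0.287, 0.341 and 0.257 RPKM (1.94 ± 0.16, adjusted p = 1.67e-07), with DMSO at 0.703 and 0.786, nearer to RXRi. Vdr was at 11.5, 11.8, 11.3 and 10.8 against 4.47, 4.91, 4.51 and 4.61 RPKM (1.14 ± 0.10, adjusted p = 5.4e-07), and both DMSO cultures, at 18.2 and 18.2, were above every library of either drug. The position of the vehicle thus differed among these 3 receptors. Thrb, a thyroid hormone receptor, was also higher (0.76 ± 0.16, adjusted p = 0.00259), as was Nr1h3, which encodes LXR alpha (1.27 ± 0.43, adjusted p = 0.044). The Nr1h3 call was lost in each fit that left out a culture (adjusted p = 0.128 to 0.159) and in limma-voom on recovered reads (0.105), with the DMSO-shared spread (0.148), with median-of-ratios scaling (0.0514) and without a filter (0.0730). For Thrb it was lost with the DMSO-shared spread (0.111). Lower with atRA were Ppard (-0.63 ± 0.12, adjusted p = 0.00119) and the orphan receptor Nr4a2 (-0.68 ± 0.11, adjusted p = 0.000294), and both calls were lost with the DMSO-shared spread (adjusted p = 0.357 and 0.0770). Pparg, Nr1h2, Nr1h4, Thra, Nr4a1 and Nr1i3 did not pass, with differences from -0.90 for Nr4a1 to 0.52 for Nr1i3. Nr1i3 passed with the culture as a block (adjusted p = 0.0359), with a pseudocount of 0.1 (0.000617) and in a fit of the 2 drug groups alone (0.0044). In that last fit Nr4a1 (0.000179) and Pparg (0.0149) passed as well, and Nr4a1 also in limma-voom (0.0387).

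Among PPAR targets, which include genes of fatty acid oxidation and ketone formation, 18 of 34 tested were higher (52.9%) and 1 was lower, with a median of 0.53. With the DMSO-shared spread 12 were higher. Fabp1 is in this list and in that of enterocyte genes. Hadhb, a subunit of the mitochondrial trifunctional protein of fatty acid oxidation, was at 54.6, 51.3, 61.5 and 68 RPKM with atRA, 29.9, 29.2, 29.4 and 27.8 with RXRi and 32.4 and 32.1 in DMSO (0.99 ± 0.09, adjusted p = 8.77e-07). The other subunit, Hadha, differed by 0.64 ± 0.07 (adjusted p = 5.72e-06). Plin2, a lipid droplet coat protein singled out after its values were seen, was the exception, at 40.8, 42.7, 51.6 and 50.7 RPKM with atRA against 101, 95.4, 100.4 and 103 (-1.10 ± 0.20). The DMSO level lay nearer to RXRi for 15 of these 19 genes, against 558 of all 3071 called genes.

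Bile acid receptor (FXR) targets had 4 of 7 tested members higher and 0 lower, with a median of 1.08. Fgf15, the intestinal hormone that restrains bile acid synthesis in the liver (chromosome 7, 144896532 to 144900953), was at 30.8, 25.1, 29.8 and 32.5 RPKM with atRA and 0.731, 0.905, 0.937 and 1.14 with RXRi (3.98 ± 0.68, adjusted p = 0.000417), with DMSO at 4.36 and 4.07. The bile acid exporter subunits Slc51a and Slc51b were low in both groups, at 2.01 to 3.08 and 1.1 to 2.44 RPKM with atRA and 0.153 to 0.265 and 0 to 0.12 with RXRi, with differences of 1.56 ± 0.26 and 1.23 ± 0.26 (adjusted p = 0.000371 and 0.00221). Osgin1 differed by 1.08 ± 0.25 (adjusted p = 0.00404, and 0.0663 with the DMSO-shared spread). Nr1h4, the FXR gene, did not pass the test (0.11 ± 0.13), and for all 4 higher targets DMSO lay nearer to RXRi.

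LXR targets had 8 of 12 members higher and 0 lower (median 1.18). Abcg5 and Abcg8, the paired exporter of sterols into the gut lumen, were at 15 to 22.5 and 9.53 to 12 RPKM with atRA and 0.333 to 0.678 and 0.411 to 0.561 with RXRi. Their differences were 3.66 ± 0.24 and 2.99 ± 0.19 (adjusted p = 1.05e-08 and 8.45e-09), and Npc1l1, the sterol importer, differed by 1.58 ± 0.16 (adjusted p = 2.61e-06). Exporter and importer of sterols were thus higher together. Among these 8 genes DMSO was nearer to atRA in 7, as it was for 2513 of all 3071 called genes. Fatty acid synthesis genes, which share Srebf1, Scd1 and Scd2 with the LXR list, had 11 of 17 members higher and 1 lower (median 0.68). The desaturases Scd1, Scd2, Fads1 and Fads2 differed by 2.24 ± 0.32, 2.02 ± 0.15, 1.16 ± 0.14 and 1.33 ± 0.15, and Elovl1, singled out afterwards, was the lower one (-0.39 ± 0.07). Cholesterol synthesis genes had 7 of 25 higher (28.0%), among them Dhcr7 (1.01 ± 0.12), and 1 lower, at a median of 0.28. With the culture as a block 12 were higher, and with the DMSO-shared spread 5.

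PXR and CAR targets, the enzymes and transporters that clear foreign compounds, had 11 of 15 members higher and 0 lower, with a median of 1.68. Cyp2c66 was at 18.2 to 27.9 RPKM with atRA and 0.898 to 1.29 with RXRi (3.52 ± 0.23, adjusted p = 1.01e-08). Gsta1, a glutathione transferase, was at 634, 644, 767 and 806 RPKM with atRA, 96.9, 104, 96.2 and 101 with RXRi and 289 and 300.0 in DMSO (2.82 ± 0.14, adjusted p = 9.76e-10). Both families have close copies that short reads may not separate. Of 6 tested vitamin D receptor targets, 1 was called (16.67%, against 11.8% of all genes higher). It was S100g, the calcium-binding calbindin-D9k (0.97 ± 0.27, adjusted p = 0.0132). That call was lost with limma-voom, in which 0 of the 6 were called, with the DMSO-shared spread (adjusted p = 0.0505) and in 3 of the 4 fits without a culture (adjusted p = 0.0588 to 0.0833), and its DMSO cultures, at 66.9 and 62.5 RPKM, were above both drugs.

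**Figure D3:**
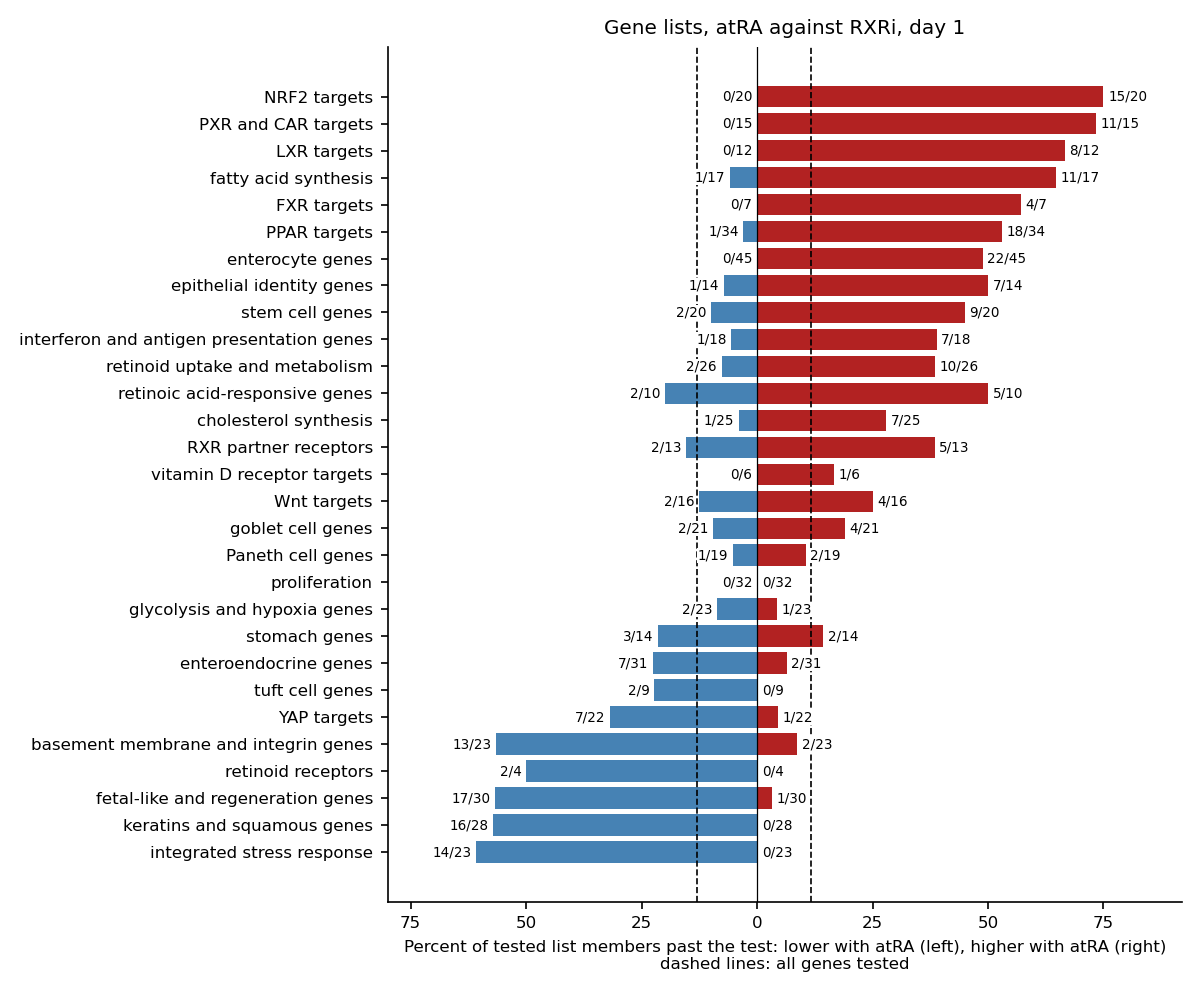
Share of the tested members of each gene list that passed the test on day 1, in percent, to the right when higher with atRA and to the left when lower; the fractions give members called of members tested, and dashed lines the shares over all tested genes (11.8% and 12.9%). NRF2 targets, PXR and CAR targets and LXR targets extend farthest to the right, and the integrated stress response, keratins and fetal-like genes farthest to the left among lists of more than 4 tested members.

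Enterocyte genes, the products of absorptive cells, had 22 of 45 tested members higher (48.9%) and 0 lower with atRA, at a median of 0.83. Mep1b, a brush border metalloprotease, was at 13.6, 14, 16.6 and 17.7 RPKM with atRA, 0.165, 0.204, 0.247 and 0.109 with RXRi and 7.17 and 8.4 in DMSO (3.80 ± 0.14, adjusted p = 1.31e-11). Other late enterocyte genes did not pass the test on this day: sucrase-isomaltase Sis differed by 0.55 ± 0.21, the aminopeptidase Anpep by 0.47 ± 0.22 and the apolipoprotein Apoa4 by 0.99 ± 0.46 (adjusted p = 0.0645, 0.143 and 0.139). With the culture as a block Sis (adjusted p = 0.0422) and Anpep (0.0315) passed, and 26 of the 45 genes were higher. In a fit of the 2 drug groups alone Sis (0.0084) and Apoa4 (0.000154) passed, with 35 of the 45 higher, and Anpep passed without the second RXRi culture (0.0477). With the DMSO-shared spread 20 of the 45 were higher. DMSO was nearer to atRA for 20 of the 22 called genes, as it was for 2513 of all 3071 called genes. In bulk RNA, fewer cells of a type and less RNA per cell cannot be told apart, here or for the lists that follow.

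Epithelial identity genes had 7 of 14 members higher and 1 lower. Cdx2, the partner of Cdx1 in intestinal identity, was at 111, 107, 98.4 and 105 RPKM against 53, 55.9, 66.2 and 63.8 (0.81 ± 0.12, adjusted p = 0.000128), a call that was lost with the DMSO-shared spread (0.545). Gata6 differed by 0.54 ± 0.09 and Vil1 by 0.84 ± 0.10. The lower one was the keratin Krt8, singled out after its values were seen (-0.75 ± 0.20). Stem cell genes had 9 of 20 higher (45.0%) and 2 lower. Besides Gkn3, these included Aqp4 (1.57 ± 0.17), Msi1 (1.42 ± 0.22), Ascl2 (1.26 ± 0.28) and the receptor regulator Lrig1 (1.02 ± 0.12). Lgr5, the defining stem cell receptor, singled out afterwards, was at 4.87, 4.46, 4.26 and 4.23 RPKM with atRA and 3.36, 3.18, 3.58 and 3.6 with RXRi, and did not pass (0.30 ± 0.25, adjusted p = 0.425). Wnt targets, which share genes with that list, had 4 of 16 higher and 2 lower, against 11.8% and 12.9% of all genes. The share of lower Wnt targets was thus not above that of all genes. With the DMSO-shared spread 3 Wnt targets were higher and 0 lower.

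Of 21 goblet cell genes 4 were higher (19.05%) and 2 lower (9.52%), against 11.8% and 12.9% of all genes. The membrane mucin Muc13 was higher, at 94.3, 104, 106 and 107 RPKM against 14.9, 14.3, 18.1 and 19.2 (2.56 ± 0.12, adjusted p = 4.23e-10). Among 19 Paneth cell genes 2 were higher (10.53%) and 1 lower (5.26%), both under the shares of all genes. The higher ones were the matrix protease Mmp7 (2.36 ± 0.34, adjusted p = 8.51e-05) and the ligand Wnt3 (0.95 ± 0.14, lost with the DMSO-shared spread, adjusted p = 0.0851), and the lower one was Nupr1 (-2.07 ± 0.42), which is also a stress gene. The antimicrobial genes Lyz1 (0.36 ± 0.26) and Defa3 (0.41 ± 0.26) did not pass, though both were abundant, at 180.4 to 275 and 392 to 484 RPKM with atRA. Of 31 enteroendocrine genes 2 were higher and 7 lower (22.6%), and 2 and 2 with the DMSO-shared spread. The 2 were hormones, Pyy at 43.8, 41.1, 56.7 and 60.5 RPKM against 4.54, 6.43, 10.7 and 9.49 (2.59 ± 0.28, adjusted p = 4.23e-06) and secretin Sct (1.23 ± 0.28, adjusted p = 0.0039), whose call was lost without the first RXRi culture (adjusted p = 0.0615). Those lower included the factor Isl1 (-0.80 ± 0.15). The tuft cell genes had 0 higher and 2 lower of 9 (22.22%, against 12.9% of all genes), Avil (-1.24 ± 0.15) and Ptgs1 (-1.22 ± 0.11). Of the 20 tuft cell genes, 11 were too low to test.

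Fetal-like and regeneration genes, which mark injured or fetal intestinal epithelium, had 17 of 30 members lower with atRA (56.7%) and 1 higher, at a median of -0.96. With the DMSO-shared spread 11 were lower. Anxa2, the most abundant of those named, was at 475, 459, 530.4 and 496 RPKM with atRA, 2006, 1931, 2009.6 and 2001 with RXRi and 869 and 869 in DMSO (-2.02 ± 0.24, adjusted p = 9.08e-06). The member higher with atRA was the alarmin Il33, singled out after its values were seen (2.07 ± 0.28). YAP targets had 7 of 22 lower (31.8%, and 5 with the DMSO-shared spread) and 1 higher. Myof was at -2.0 ± 0.36 and Amotl1 at -1.20 ± 0.14, with the kinase Nuak2 as the higher one (1.23 ± 0.15).

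Keratin and squamous genes had 16 of 28 lower (57.1%) and 0 higher, at a median of -0.75. Anxa8 had the lowest difference in this list and in the fetal-like list, so the lists are not separate. Lor (loricrin) was at 1.21, 1.14, 1.05 and 1.18 RPKM against 10.6, 10.8, 13.2 and 17.6 (-2.68 ± 0.18, adjusted p = 1.8e-08), and the desmosomal cadherin Dsg3 at 0.116, 0.0396, 0.0684 and 0.194 against 2.71, 2.84, 2.44 and 1.82 (-1.64 ± 0.11). For both genes every RXRi library stood above every atRA library. Basement membrane and integrin genes had 13 of 23 lower (56.5%) and 2 higher. The collagen IV chains Col4a1 and Col4a2 differed by -1.49 ± 0.22 and -1.54 ± 0.22, Col18a1 by -1.91 ± 0.22 and the laminin chain Lamc1 by -1.0 ± 0.15. Col4a2 was at 2.27, 1.99, 2.04 and 1.45 RPKM with atRA, 7.87, 8.33, 6.62 and 7.26 with RXRi and 7.52 and 6.18 in DMSO, with the vehicle close to RXRi. For 11 of the 15 called genes of this list DMSO was nearer to atRA, as it was for 2513 of all 3071 called genes.

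The integrated stress response, the ATF4 programme of amino acid synthesis and transport, had 14 of 23 members lower with atRA (60.9%) and 0 higher, at a median of -0.70. Cth, an enzyme that makes cysteine from cystathionine, was at 19.8, 20.1, 14.9 and 17.6 RPKM with atRA, 60.3, 57.2, 52.7 and 52.1 with RXRi and 16.7 and 13.3 in DMSO (-1.57 ± 0.22, adjusted p = 5.54e-05). Atf4 was at 250.2, 242, 235 and 231 against 379, 372, 366 and 345 RPKM (-0.61 ± 0.11, adjusted p = 0.00054), with DMSO at 247 and 220.2. Atf5 (-1.42 ± 0.23) and Pck2 (-1.18 ± 0.18) were lower as well, and the call of Pck2 was lost with the DMSO-shared spread (adjusted p = 0.0722). In all 14 genes DMSO was nearer to atRA, and in 13 of them its mean was below those of both drugs. Among all 3071 called genes these positions held for 2513 and 363.

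NRF2 targets, the antioxidant and glutathione genes, had 15 of 20 members higher with atRA (75.0%) and 0 lower, at a median of 0.60. The largest difference in this list, 2.82, was that of Gsta1, which is also among the PXR and CAR targets. With the DMSO-shared spread 12 were higher. Cbr3, a carbonyl reductase, was at 93.2, 92, 109 and 111 RPKM with atRA, 15.9, 17.7, 20.7 and 19.9 with RXRi and 17.9 and 19.4 in DMSO (2.39 ± 0.27, adjusted p = 5.99e-06). Gsta3 was at 119, 112, 119 and 119.9 against 24.2, 25.9, 27.4 and 24.5 RPKM (2.16 ± 0.23, adjusted p = 3.74e-06), with DMSO at 30.5 and 32, and Gstm1 differed by 1.83 ± 0.21. For 9 of the 15 DMSO was nearer to RXRi, against 558 of all 3071 called genes. Interferon and antigen presentation genes had 7 of 18 higher (3 with the DMSO-shared spread) and 1 lower, among them the factor Irf1 at 16.4, 16.2, 16.2 and 15.9 against 6.6, 4.73, 7.1 and 6.68 RPKM (1.25 ± 0.10, adjusted p = 1.65e-07).

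Proliferation genes were not called in either direction by limma across all groups or by limma-voom (0 of 32), with 1 at an unadjusted p under 0.05, at a median of 0.07. Fitted to the 2 drug groups alone, limma called 8 of 32 higher with atRA and 0 lower, and with the culture as a block it called 1 higher, Cdc6 (adjusted p = 0.0480). The 4 with the smallest p, Rrm2, Mcm6, Cdc6 and Mcm7, differed by 0.29 to 0.40, and all 4 passed in the fit of the drug groups alone (adjusted p = 0.00603 to 0.0229). Glycolysis and hypoxia genes had 1 of 23 higher (4.35%), the carbonic anhydrase Car9 (1.16 ± 0.27), and 2 lower (8.7%). Both shares were under those of all genes (11.8% and 12.9%). Ndrg1, a hypoxia- and stress-induced gene, was at 15.1, 15.7, 18.3 and 18.9 RPKM with atRA, 115, 109.7, 113 and 121 with RXRi and 17.3 and 21.1 in DMSO (-2.69 ± 0.62, adjusted p = 0.00413). The call of the other, the hexokinase Hk1 (-1.26 ± 0.42), was lost in each fit without a culture (adjusted p = 0.112 to 0.153), with the DMSO-shared spread (0.127) and without a filter (0.0629). Stomach genes had 2 of 14 higher (14.29%) and 3 lower (21.43%), against 11.8% and 12.9% of all genes.

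**Figure D4:**
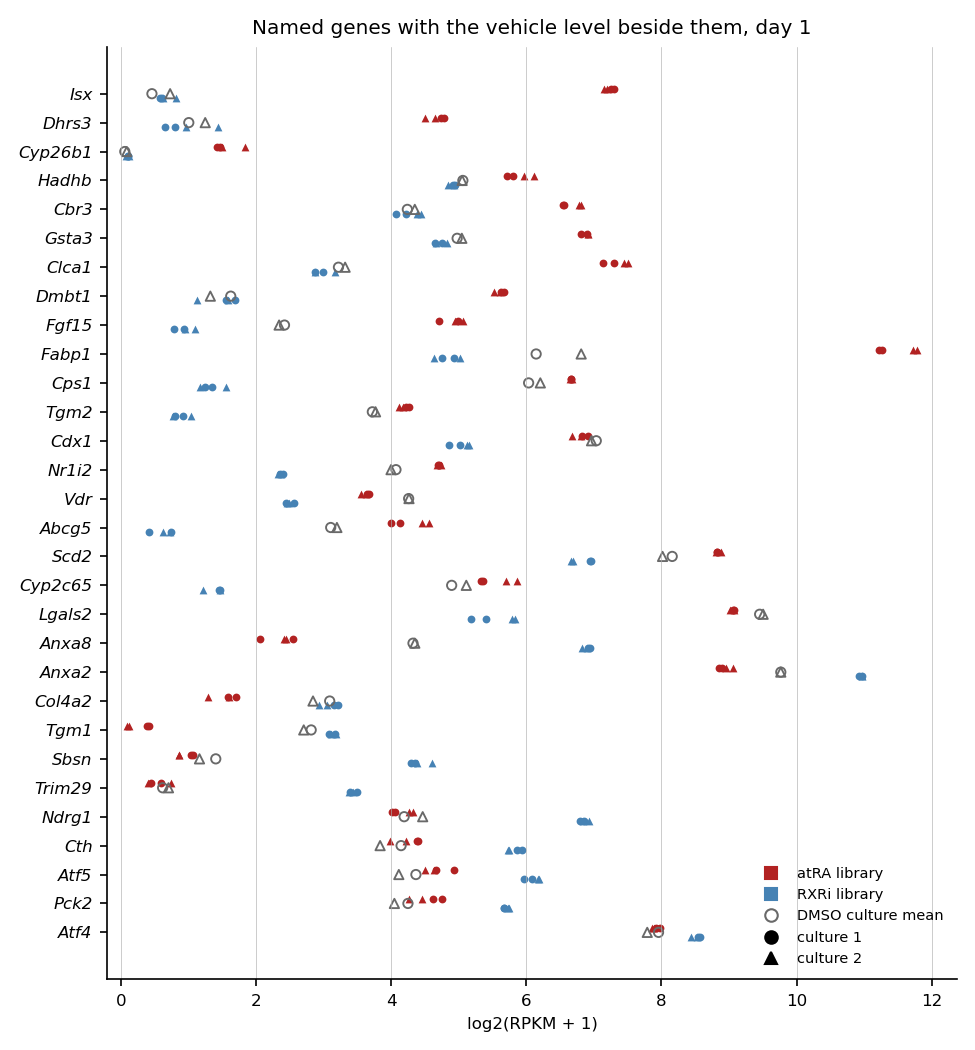
Day 1 level of 30 genes named in the text, in log2(RPKM + 1); filled points are single libraries (red atRA, blue RXRi), open points DMSO culture means, circles culture 1 and triangles culture 2. From Isx to Dmbt1 the open points lie with or near RXRi, from Cps1 to Lgals2 near or above atRA except for in-between levels such as Abcg5, and for Cth, Atf5 and Pck2 among or below the atRA points.

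Vehicle levels divide the 3071 called genes by which drug stands apart, as a description without a test. DMSO lay between the drugs for 2364 genes, above both for 344 and below both for 363. On the log2 scale it was nearer to atRA for 2513 genes and nearer to RXRi for 558. Among the 420 genes higher with atRA by at least 2-fold it was nearer to RXRi for 80, and among the 304 lower for 52. The PPAR list, with 15 of 19, and the FXR list, with 4 of 4, thus lay mostly nearer to RXRi, while the enterocyte list, with 2 of 22, and the integrated stress response, with 0 of 14, did not.

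Later days were read from other libraries of the same 2 cultures, 8 for each day. Medium was changed and drug renewed on day 3, and the medium after day 3 was a different one. Culture time, renewed drug and medium thus differ together between day 1 and days 4 and 5, and their parts cannot be told apart. On day 4, 3796 genes were higher with atRA (30.6%) and 3612 lower (29.1%). Of the 1464 genes higher on day 1, 1212 were also higher on day 4 (82.8% of the day 1 genes and 31.9% of the day 4 genes), and 49 were lower. Of the 1607 lower on day 1, 1339 were also lower on day 4 (83.3% and 37.1%), and 49 were higher. Counted with its sign, the difference atRA minus RXRi was larger on day 4 than on day 1 for 2178 genes (17.5%) and smaller for 1904 (15.3%). Larger thus means moved towards higher with atRA, and smaller means moved towards higher with RXRi. The smaller ones include 180 of the 304 genes lower with atRA by at least 2-fold on day 1, whose gap widened. On day 5, 4555 genes were higher (36.7%) and 3645 lower (29.3%), and on day 3 they were 3069 (24.7%) and 2717 (21.9%). For day 3 the counts of larger and smaller differences were 557 (4.48%) and 550 (4.43%), and for day 5 they were 2834 (22.8%) and 2080 (16.7%).

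Several lists were closer together on day 1 than later. The median of enterocyte genes went from 0.83 on day 1 to 2.57, 5.01 and 4.87 on days 3, 4 and 5, and that of Paneth cell genes from 0.15 to 1.59, 4.00 and 5.22. Apoa4, which did not pass on day 1, was at 1205 RPKM with atRA and 1.25 with RXRi on day 4, a difference larger than on day 1 by 8.07 ± 0.66 (adjusted p = 2e-07). Sis parted in the same way (7.15 ± 0.29), with 315 against 0.519 RPKM. The Paneth cell defensin Defa3, from a family of near-identical copies, reached 1467 against 1.02 RPKM on day 5, a change of 9.09 ± 0.37. In each of these genes the RXRi level went down after day 1.

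In the other direction, the fetal-like list went from -0.96 to -2.66, -3.57 and -3.69, and the keratin and squamous list from -0.75 to -1.91, -2.33 and -2.23. Ivl (involucrin), a cornified envelope protein, was at 1.67 to 2.53 RPKM with atRA and 1.26 to 1.43 with RXRi on day 1 and did not pass (0.36 ± 0.29; adjusted p = 0.0328 in the fit of the drug groups alone). On day 4 it was at 2.76 against 188 RPKM (change -6.03 ± 0.41, adjusted p = 2.98e-08). Tff1, apart already on day 1, reached 4747 RPKM with RXRi on day 5 against 2.04 with atRA (change -7.45 ± 0.33, adjusted p = 2.03e-10).

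Some early differences were smaller or absent later. The NRF2 list had a median of 0.60 on day 1 and of -0.02, 0.14 and 0.01 on days 3, 4 and 5. On those days 6, 7 and 5 of its 20 genes were higher with atRA and 2, 6 and 8 lower. Of all tested genes 24.7%, 30.6% and 36.7% were higher and 21.9%, 29.1% and 29.3% lower. The signed difference was smaller than on day 1 for 5, 7 and 11 of the 20 genes. The shares of all genes with a smaller difference were 4.43%, 15.3% and 16.7%. Gsta1 was higher with atRA on day 1 and at 869 against 1055 RPKM on day 3, a change of -3.10 ± 0.20 (adjusted p = 1.25e-07). Cth went from -1.57 ± 0.22 to 0.55 on day 4 (change 2.13 ± 0.31, adjusted p = 6.75e-05), although the median of the whole stress list stayed between -0.70 and -1.29. Isx kept a difference of 7.38 to 7.54 on the later days, on which its DMSO mean was 98.6 to 132 RPKM instead of near 0.

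**Figure D5:**
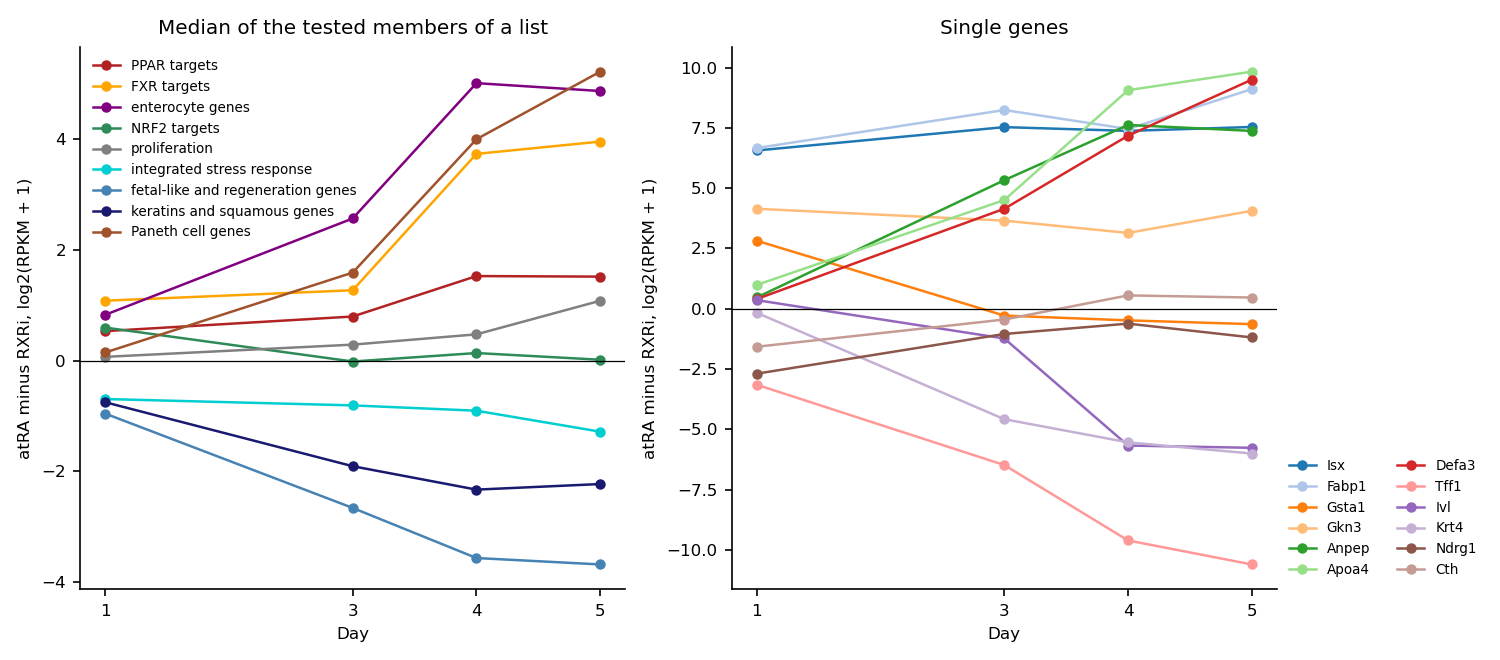
Difference atRA minus RXRi in log2(RPKM + 1) on days 1, 3, 4 and 5; the left panel shows the median over the tested members of 9 gene lists and the right panel 12 single genes, each from culture means of 2 cultures per drug. Enterocyte and Paneth cell genes part upward and fetal-like and squamous genes downward after day 1, while the NRF2 median returns to about 0, Gsta1 drops below 0 and Isx stays near 7.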

How the data were processed

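RNA-seq of organoids was compared between 4 atRA and 4 RXRi libraries of day 1. The authors deposited RPKM, which divides reads by gene length and by the library's total (per the file headers). The submitters' processing notes name STAR 2.5.2b, bcl2fastq 2.17 and mm10. How reads were counted, with which annotation and strand setting, is not given in the sources, so overlapping, antisense and near-identical genes may share reads. Large rises of some genes therefore lower others. From the RPKM steps, whole reads were recovered for 100% of values above 0 (tolerance 0.001 read); they gave the depths and 1 alternative. The floor of 3 reads covers counting error only.

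Duplicates were averaged on log2(RPKM + 1), which gave n = 2 cultures per group. A gene was tested where 4 or more of 48 libraries reached 1 RPKM (12423 of 24116 genes, with 11693 not tested). The package limma 3.58.1 in R 4.3.3 (trend and robust options) was fitted to 24 culture means of 12 groups, without day 1 DMSO, with 12 residual degrees of freedom. All tests were two-sided, adjusted by Benjamini-Hochberg over all tested genes at a threshold of 0.05, and ± is the standard error of the fit unless SD is given. The procedure was also run on simulated data. There the cultures were independent and duplicates differed by counting error only, unlike these data, so no support is drawn from it. DMSO levels of day 1 leave out 1 library of 12443 reads. The contrasts within days 3, 4 and 5 were added after seeing the data, as was the search for single AGGTCA half-sites.

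The members and the 32 gene lists were chosen with earlier results of these data known. Named were the 12 largest differences each way among called genes without overlap and without predicted gene models, all retinoic acid-responsive, receptor and partner genes, the members of each other list with the smallest p (at most 4), and the 3 largest changes each way between day 1 and each later day. Of these 153 genes a part is described. Some of them are not reported here. Coordinates are 1-based, from RefSeq for GRCm38.p6, the patch series of mm10, matched by Entrez identifier for 99.89% of tested genes.

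Same-numbered cultures come from the same mouse, per the labels' protocols. Their deviations from the group means correlated at r = -0.109 between the 2 day 1 drug groups and at a median of 0.181 over 66 pairs of groups (-0.319 to 0.76; 46 above 0.1). The culture was kept as a block only in an alternative. Duplicates of a culture differed by more than counting error (chi-square per degree of freedom 2.28 to 4.61 over 4 pairs), and 0 pairs of the 8 libraries held identical values.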

Additional observations from a re-analysis of the deposited data

Results flagged for a closer look

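The genes below were chosen for the size of the change between days in the difference atRA minus RXRi (limma, interaction of drug and day, adjusted p under 0.05, n = 2 cultures per group). From day 1 to day 3 that difference grew by 5.22 ± 0.37 for the Paneth cell lysozyme Lyz1, 4.86 ± 0.32 for Anpep and 4.15 ± 0.27 for the galectin Lgals2. It changed by -4.41 ± 0.48 for the squamous keratin Krt4, -3.49 ± 0.58 for Ly6c1 and -3.38 ± 0.37 for caveolin Cav1. Ly6c1, from a family of close copies, was called on day 1 (-1.23 ± 0.41, adjusted p = 0.0365), and its call was lost in each fit without a culture (adjusted p = 0.107 to 0.146). From day 1 to day 4 it grew by 8.07 ± 0.66 for Apoa4, 7.15 ± 0.32 for Anpep and 7.15 ± 0.29 for Sis, and changed by -7.24 ± 0.32 for the mast cell protease gene Mcpt2, -6.46 ± 0.33 for Tff1 and -6.03 ± 0.41 for Ivl. From day 1 to day 5 it grew by 9.09 ± 0.37 for Defa3, 8.96 ± 0.40 for Defa17 and 8.84 ± 0.66 for Apoa4, and changed by -8.02 ± 0.32 for Mcpt2, -7.45 ± 0.33 for Tff1 and -6.12 ± 0.41 for Ivl.

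Mcpt2 was at 1.54, 1.91, 1.22 and 2.54 RPKM with atRA and 1.99, 1.8, 0.845 and 2.18 with RXRi on day 1, where the libraries overlapped, and at 1.42 against 348 on day 4. Krt4 and Ivl did not pass the test on day 1, when both drugs stood above DMSO (8.47 and 4.95 RPKM for Krt4 and 0.38 and 0.314 for Ivl). A change against the early direction was seen for Gsta1 from day 1 to day 3 (-3.10 ± 0.20) and for Cth from day 1 to day 4 (2.13 ± 0.31), both singled out after their values were seen.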

How the results depend on the processing

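Of 117 named genes called on day 1, 96 kept direction and call under every alternative in which they were tested, the crossed numbering apart. Sharing the spread with day 1 DMSO, which includes the library of 12443 reads, left 645 genes higher and 601 lower. It left 178 larger and 195 smaller signed differences for day 3 against day 1, 1101 and 799 for day 4, and 1384 and 972 for day 5. Its counts within later days were 1594 and 1475 (day 3), 2452 and 2202 (day 4) and 2952 and 2370 (day 5), an alternative added after seeing the data. Among the named genes, 101 of the 117 kept their call under that setting. Those that lost it included Cd44, Cdx2, Hk1, Ly6c1, Nr1h3, Nr4a2, Osgin1, Pck2, Plaat3, Ppard, Psmb9, Rxra, S100g, Thrb and Wnt3. Fitting only the 2 drug groups gave 2291 higher and 2183 lower, and 14 more named genes were called. With the culture as a replicate block the counts were 1728 and 1853, and all 117 named calls held and 6 were gained. Numbering the RXRi cultures crosswise in that block gave 1672 and 1784.

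Leaving out 1 culture gave 957 to 1044 higher and 932 to 1198 lower. The lowest counts were those without the first atRA culture, and 974 were higher without the first RXRi culture and 1002 lower without the second. For larger and smaller differences on day 3 the ranges were 356 to 470 and 375 to 429. A group left with 1 culture is assumed to vary like the others.

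Median-of-ratios scaling gave 1687 higher and 1396 lower and moved the median of all genes to 0.042. limma-voom on recovered reads gave 1464 and 1570, of which 1378 and 1517 were also called before. The pseudocount of 0.1, the absent filter and the filter on the 8 libraries kept both counts within 1.5 times. No result reversed. The cause of these shifts was not tested. Genes under 1 RPKM, such as Rarb and Cyp26a1, are limited by depth, and 2 mice limit what holds beyond these cultures.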
